A study of Mus musculus with 22 samples.

Results

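The 10 genes described here encode the cyclins, kinases and chromosome proteins of mitosis that are commonly read as markers of proliferating cells: *Ccna2*, *Ccnb1*, *Ccnb2*, *Cdk1*, *Plk1*, *Aurka*, *Aurkb*, *Bub1*, *Top2a* and *Mki67*. They were selected by symbol in the table of raw gene counts, which lists 55573 genes, and each symbol matched 1 row. All 10 were among the 14062 genes with a mean of at least 10 reads per library that were tested. The rule uses symbols and no measured values, but the members were chosen with earlier results of these data known.

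Liver mRNA was sequenced from 22 C57BL/6 mice with 1 library per mouse. The controls, called Cre mice, carried wild-type *Flcn* and 1 Albumin-Cre allele (Flcn WT/WT;Albumin-Cre+/-), and the liver-*Flcn*-/- mice (FLCN KO, or KO mice below) carried floxed *Flcn* alleles and Albumin-Cre. The Albumin promoter drives Cre mainly in hepatocytes, and which cells lost *Flcn* was not measured in these data. Both genotypes carried the recombinase. The groups were 6 Cre mice on chow, 5 Cre mice on a methionine- and choline-deficient (MCD) diet, 5 KO mice on chow and 6 KO mice on MCD, all listed at 3 months of age, with 6 weeks on the diet from an age of 6 weeks. FLCN (folliculin) restrains the transcription factors TFEB and TFE3, and the MCD diet is a standard mouse model of steatohepatitis with fibrosis. The comparisons below address whether the transcripts of dividing cells differed with the diet, with the genotype, and with both.

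Entry into mitosis is driven by CDK1 bound to cyclin A2 and then to the B-type cyclins, and the Polo and Aurora kinases build the spindle, pair chromosomes with it and complete division. Most of these genes are silent outside the cell cycle and are switched on together in its G2 and M phases, when the MuvB complex, MYBL2 and FOXM1 act on cell cycle homology region (CHR) elements and NF-Y acts on CCAAT boxes. Adult hepatocytes seldom divide, and in an injured liver both hepatocytes and other cells can enter the cycle. In bulk tissue, fewer dividing cells and less RNA in each of them cannot be told apart, and the cell type that gave a read is unknown.

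The promoters of 8 of the 10 members were found in the RefSeq table of GRCm38.p6, and *Ccna2* and *Aurkb* were not. Because the members moved together between libraries, 5 promoters are shown from 200 bases before to 30 bases after the start site, on the strand of the gene and 5′ to 3′. They lie at chr13:100786457-100786686 (minus strand) for *Ccnb1*, chr9:70421525-70421754 (minus) for *Ccnb2*, chr10:69352883-69353112 (minus) for *Cdk1*, chr7:122159235-122159464 (plus) for *Plk1* and chr7:135716350-135716579 (minus) for *Mki67*. Capitals mark the CHR letters TTTGAA or TTTAAA and the letters CCAAT, each on either strand.
Ccnb1: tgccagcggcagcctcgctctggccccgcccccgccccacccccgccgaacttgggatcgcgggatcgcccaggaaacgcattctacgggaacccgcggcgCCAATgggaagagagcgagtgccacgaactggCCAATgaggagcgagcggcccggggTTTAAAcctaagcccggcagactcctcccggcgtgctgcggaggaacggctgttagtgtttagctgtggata
Ccnb2: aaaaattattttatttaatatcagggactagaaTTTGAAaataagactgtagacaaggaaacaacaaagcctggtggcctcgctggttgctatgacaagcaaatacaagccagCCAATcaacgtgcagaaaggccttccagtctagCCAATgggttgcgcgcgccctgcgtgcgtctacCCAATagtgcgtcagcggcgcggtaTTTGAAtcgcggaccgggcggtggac
Cdk1: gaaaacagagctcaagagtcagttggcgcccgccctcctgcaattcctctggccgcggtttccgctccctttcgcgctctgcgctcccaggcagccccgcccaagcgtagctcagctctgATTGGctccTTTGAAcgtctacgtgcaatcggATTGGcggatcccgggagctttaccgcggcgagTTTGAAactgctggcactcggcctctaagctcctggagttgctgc
Plk1: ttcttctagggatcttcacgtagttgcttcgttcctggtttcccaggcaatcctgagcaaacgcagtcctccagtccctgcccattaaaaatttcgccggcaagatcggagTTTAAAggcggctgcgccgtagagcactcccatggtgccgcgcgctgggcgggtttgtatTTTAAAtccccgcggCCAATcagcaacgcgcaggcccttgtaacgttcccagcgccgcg
Mki67: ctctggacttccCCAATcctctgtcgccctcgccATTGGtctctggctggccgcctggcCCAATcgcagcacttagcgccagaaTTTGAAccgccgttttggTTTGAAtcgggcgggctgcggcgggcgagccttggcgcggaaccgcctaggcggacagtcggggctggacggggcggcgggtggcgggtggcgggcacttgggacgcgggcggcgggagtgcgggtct

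At least 1 CHR match stood in 7 of the 8 promoters within the whole window of 250 bases before to 50 bases after the start, against 27.6% of all 32851 promoters in the table. CCAAT stood in 8 of 8, against 37.4%. Distances are from the RefSeq start site, which for *Ccnb1* lies 84 bases inside the gene as GENCODE annotates it and for the other 4 promoters shown 4 to 26 bases from the GENCODE start. *Ccnb1* held its CHR letters 42 bases before the RefSeq start and CCAAT at 99 and 67 bases before it, so that the CHR letters and the nearer CCAAT lie within the GENCODE gene. In *Plk1*, TTTAAA stood at 89 and 29 bases before the start. The *Bub1* promoter held 2 CCAAT matches and no CHR match, which says only that these letters are not in that window. These matches describe the sequences and are not measurements of binding.

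The depth per library, as reads assigned to genes, was 15276157 to 19417246 for the Cre chow group and 18201287 to 21144388 for the Cre MCD group. It was 13751347 to 19645473 for the KO chow group and 16616132 to 20706657 for the KO MCD group. The members are rare in this depth: *Ccnb1* had 0 to 11 reads per library in Cre mice on chow and *Bub1* 2 to 9. Only 6 of the 10 members reached a mean of 10 reads in Cre mice on chow, while all 10 did in Cre mice on MCD, so 4 passed the filter on low counts through the other groups. Levels are given in CPM, a gene's reads per 1e6 reads of the library after scaling with TMM factors.

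The labels were checked against *Flcn* and against hepatocyte genes. *Flcn* reads are counted over the whole gene, whereas the floxed allele loses exon 7, so the count tests the genotype only in part. *Flcn* was lower in KO than in Cre mice on chow, by a log2 fold change of -0.63 ± 0.17 (SE, adjusted p = 0.025), and did not pass the test on MCD (-0.17, adjusted p = 0.57). *Alb*, which encodes albumin, was the most abundant of the 5 hepatocyte markers, whose summed level was 122000 ± 19900 CPM (SD, n = 6) in Cre mice on chow and 66600 ± 7660 CPM (SD, n = 6) in KO mice on MCD.

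Several libraries stood apart before any member was considered. The labels give no sex, but *Xist* exceeded the Y-linked *Ddx3y* in 12 libraries (*Xist* libraries below) and the reverse held in 10 (Y libraries), with both kinds in every group. The Y libraries were Cre chow 1, 5 and 6, Cre MCD 3 and 4, KO chow 1 and 3, and KO MCD 1, 2 and 4. Cre MCD mouse 1, an *Xist* library, also held *Ddx3y* at 15.6 CPM, or 17.5% of the median of the Y libraries, as did KO chow mouse 2 (17.6%). Cre MCD mouse 3 held skeletal muscle RNA, with *Acta1* at 599 CPM against 29.6 in Cre MCD mouse 4. On chow the 5 Y libraries were the 5 whose uniquely mapped share was under 75%, so sex and mapping cannot be told apart there. Counts and medians of the members are given below for the *Xist* and the Y libraries separately.

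All 10 members rose with the MCD diet in Cre mice, by a median log2 fold change of 2.36, when 29.3% of all tested genes were called higher and their median was 0.01. The size of the rise differed widely between mice. The summed level of the 10 genes was 129 CPM in Cre MCD mouse 1 and 136 CPM in mouse 4, against 29.6, 20.6 and 43.8 CPM in mice 2, 3 and 5, and 8.3 to 19.7 CPM in the 6 Cre mice on chow. Every Cre mouse on MCD was above every Cre mouse on chow in this sum, with mouse 3 closest to the chow group. The highest library held a median of 38.8% of a member's group total (33.4 to 45.8%), where an equal share would be 20%.

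**Figure D1:**
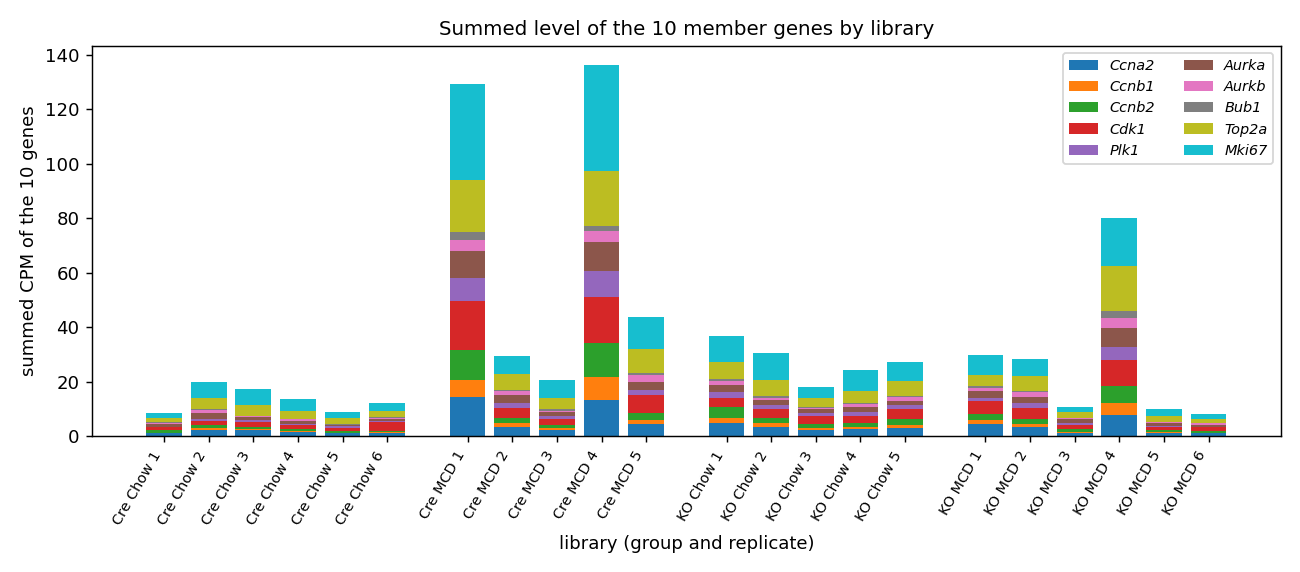
Summed CPM of the 10 genes (vertical axis, linear from 0) in each of the 22 libraries (horizontal axis), with 1 color for each gene. Cre MCD mice 1 and 4 reach 129 and 136 CPM and KO MCD mouse 4 reaches 80.1 CPM, above all other libraries.

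Among the cyclins, *Ccnb1* (chr13:100778650-100786570, GRCm38), which encodes the cyclin B1 partner of CDK1 at mitotic entry, was at 6.34, 1.59, 0.937, 8.3 and 1.43 CPM in Cre MCD mice 1 to 5. In Cre mice on chow it ranged from 0 to 0.668 CPM with a median of 0.303. The groups did not overlap, and the log2 fold change of 3.57 ± 0.81 (adjusted p = 8e-04) was the largest of the 10, against a group in which 1 library had 0 reads and the highest had 11. *Ccnb2* (chr9:70407692-70421547), the second B-type cyclin, was at 11, 1.72, 1.12, 12.5 and 2.41 CPM on MCD and at 0.562 to 1.15 CPM on chow (median 0.736). Mouse 3 fell below the highest chow value, and *Ccnb2* rose by 2.85 ± 0.65 (adjusted p = 0.00079). *Ccna2* (chr3:36564865-36572150), the cyclin of S phase and early mitosis, was at 14.2, 3.15, 2.16, 13.2 and 4.46 CPM on MCD, against 1.08 to 2.19 CPM on chow (median 1.26). Here too mouse 3 lay within the chow range, and the log2 fold change was 2.30 ± 0.53 (adjusted p = 0.00083). *Exosc9*, on the opposite strand, shares 12.5% of the exon bases of *Ccna2*, and the strand setting of the counting is not stated.

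Among the kinases, *Plk1* (chr7:122159439-122169873), the Polo-like kinase of spindle assembly and cytokinesis, was at 8.69, 1.77, 1.08, 9.31 and 1.69 CPM in Cre MCD mice 1 to 5 and at 0.158 to 0.668 CPM on chow (median 0.438). Its groups did not overlap, with a log2 fold change of 3.29 ± 0.71 (adjusted p = 5e-04). *Cdk1* (chr10:69335146-69352938), the kinase bound by all 3 cyclins above, was at 17.9, 3.92, 1.92, 17.1 and 6.81 CPM on MCD and at 1.03 to 3.13 CPM on chow (median 1.61). It rose by 2.41 ± 0.54 (adjusted p = 0.00063) although mouse 3 lay inside the chow range. The Aurora kinases, *Aurka* of the spindle poles (chr2:172356190-172370535) and *Aurkb* of the chromosomal passenger complex (chr11:69045647-69051664), rose by 2.34 ± 0.54 (adjusted p = 0.00088) and 2.32 ± 0.62 (adjusted p = 0.0031). *Bub1* (chr2:127801122-127831865), a kinase of the spindle checkpoint and the rarest member per length in Cre mice on MCD (median 0.165 CPM per kb of exon), was at 3.01, 0.388, 0.656, 1.79 and 0.717 CPM on MCD. On chow *Bub1* ranged from 0.135 to 0.547 CPM, so mouse 2 overlapped that group, and its log2 fold change was 2.10 ± 0.71 (adjusted p = 0.015).

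Among the chromosome proteins, *Top2a* (chr11:98992943-99024189), the topoisomerase that untangles replicated DNA, was at 19, 5.86, 4.08, 20.1 and 8.81 CPM on MCD and at 1.58 to 4.08 CPM on chow (median 2.54). The lowest MCD mouse (mouse 3) and the highest chow mouse both round to 4.08 CPM but did not cross, and *Top2a* rose by 2.05 ± 0.53 (adjusted p = 0.0023). *Mki67* (chr7:135689784-135716361), which encodes the Ki-67 antigen on the surface of mitotic chromosomes, was at 35.1, 6.81, 6.75, 39.1 and 11.9 CPM on MCD. On chow it ranged from 1.74 to 5.87 CPM (median 3.62), below every MCD mouse, and the log2 fold change was 2.37 ± 0.57 (adjusted p = 0.0012). In all, 4 members (*Ccnb1*, *Plk1*, *Top2a* and *Mki67*) had every MCD mouse above every chow mouse, as did 15.6% of all tested genes, and 6 overlapped. Per length, *Ccnb2* was the most abundant member in Cre mice on both diets (median 1.57 CPM per kb on MCD and 0.481 on chow).

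**Figure D2:**
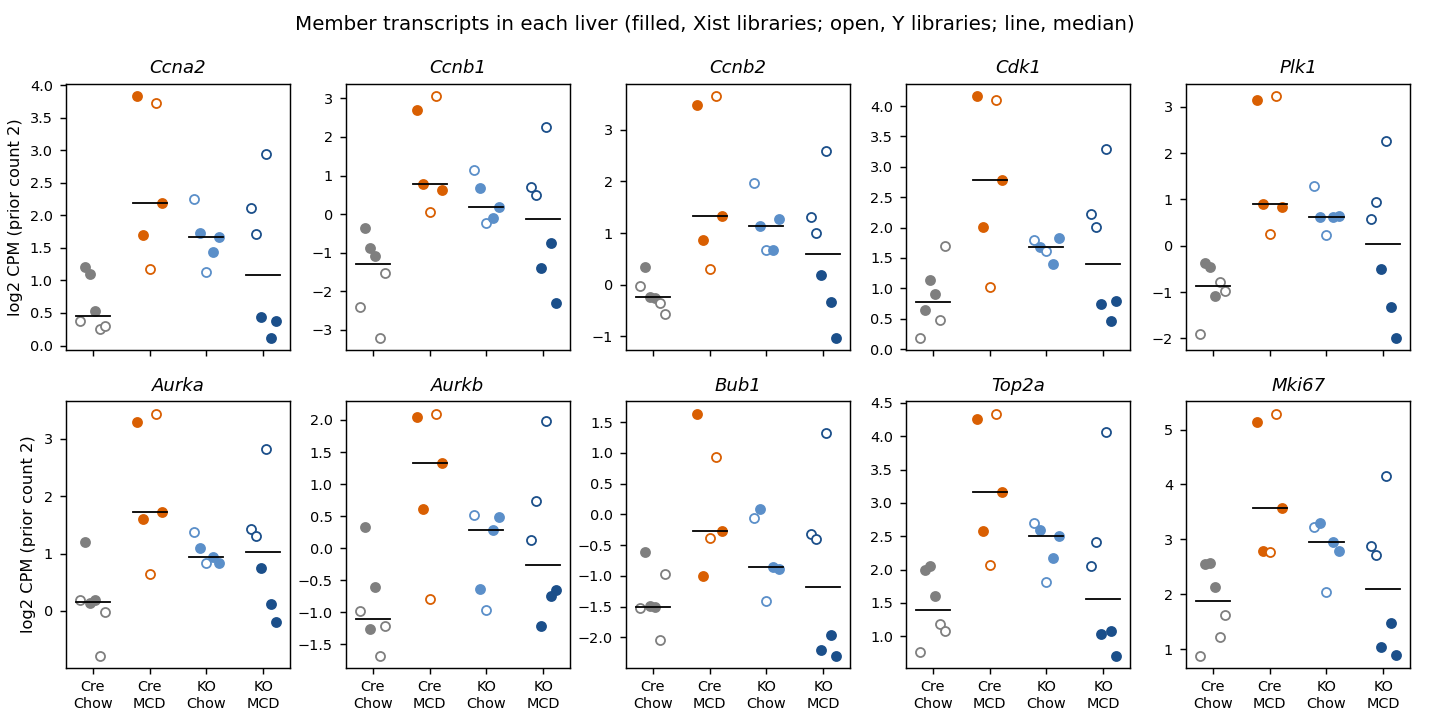
log2 CPM (prior count 2, vertical axis, a separate scale in each panel) of each member in every liver of the 4 groups, with a line at the group median. Filled points are *Xist* libraries and open points are Y libraries. In the group of KO mice on MCD the 3 open points lie above the 3 filled points in all 10 panels.

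The rise did not rest on 1 mouse. With each of the 22 mice left out in turn, 9 or 10 members stayed called in Cre mice, and *Bub1* was the member lost, without Cre MCD mouse 1 (log2 fold change 1.53). In these fits 3854 to 4151 genes were called higher. In the *Xist* libraries alone 10 members were called (median 1.98), when 26.4% of all genes were called higher, and in the Y libraries alone 9 (median 2.94), when 18.5% were. Without the 5 chow libraries of low uniquely mapped share 7 were called, when 26.3% of all genes were called higher. All 10 stayed positive there, with a median of 1.99 (1.67 to 3.02).

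In KO mice no member passed the test between MCD and chow, and 0 had an unadjusted p under 0.05 with edgeR, while 45% of all tested genes were called in either direction. DESeq2 and limma-voom also called 0. Over all genes DESeq2 called 3287 of 14013 higher and 3169 lower, and limma-voom called 3158 of 14062 higher and 3130 lower. The median log2 fold change of the 10 members was 0.12, from -0.24 ± 0.55 for *Mki67* to 0.48 ± 0.60 for *Aurkb*, with adjusted p-values of 0.54 to 0.99. With standard errors of 0.51 to 0.73, changes of moderate size in either direction could be missed. *Plk1* was at 2.33, 1.43, 1.07, 1.43 and 1.46 CPM in KO mice 1 to 5 on chow and at 0.143 to 4.69 CPM on MCD (median 0.987). *Mki67* was at 9.26, 9.74, 4.03, 7.61 and 6.79 CPM on chow and at 1.77 to 17.7 CPM on MCD (median 4.55). On MCD the values spread to both sides of the chow values, which they overlapped for all 10 members.

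That spread had 1 high library. KO MCD mouse 4 had a summed level of 80.1 CPM, against 29.6 and 28.3 CPM in mice 1 and 2 and 10.6, 10 and 8.11 CPM in mice 3, 5 and 6. It was the highest of its group for every member and held a median of 49% of a member's group total (41.3 to 58.8%), where an equal share would be 16.7%. Without it the median log2 fold change of MCD against chow was -0.74 with 0 members called, when 2972 of 14045 genes were called higher and 3016 lower. The 3 Y livers of this group were above the 3 *Xist* livers for all 10 members, an order that 6.39% of all tested genes share. In Cre mice on MCD and in KO mice on chow the 2 kinds overlapped for all 10 members, and in Cre mice on chow the Y livers were lower for 4, as they were for 14.9% of all tested genes. In the *Xist* libraries alone 5 members were called lower on MCD (*Ccna2*, *Ccnb1*, *Plk1*, *Top2a* and *Mki67*), with a median over the 10 of -1.52, when 20.7% of all genes were called lower. A single fit split by sex, described under Other observations, called 2 of these lower (*Top2a* and *Mki67*). In the Y libraries alone the median was 0.82 and 0 were called, when 1302 of 13967 genes were called higher and 1603 lower.

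On chow, the members were higher in KO than in Cre mice by a median log2 fold change of 0.95, positive for all 10, but 0 passed the test, when 5.52% of all genes were called higher. With edgeR, 3 had an unadjusted p under 0.05, and these were also the 3 whose groups did not overlap: *Ccnb1* (1.96 ± 0.86, adjusted p = 0.17), *Ccnb2* (1.48 ± 0.67, adjusted p = 0.18) and *Plk1* (1.74 ± 0.74, adjusted p = 0.15). Groups without overlap in this direction were found for 4.01% of all tested genes. *Ccnb1* was at 2.1, 1.49, 0.739, 0.827 and 1.02 CPM in the 5 KO mice, above the Cre maximum of 0.668. *Ccnb2* was at 3.81, 2.08, 1.48, 1.49 and 2.32 CPM, above the Cre maximum of 1.15. A fit of the 2 chow groups alone called *Ccna2*, *Ccnb1*, *Ccnb2* and *Plk1* (adjusted p = 0.005 to 0.042), when 5.31% of all genes were called higher. That fit takes its spread from the chow livers only, whereas the main fit shares 1 spread with the MCD livers. DESeq2 called 0, when it called 921 of 14013 genes higher. With any mouse left out 0 were called, when 499 to 883 genes were called higher. The median was 0.72 without the 5 chow libraries of low uniquely mapped share, 0.72 in the *Xist* libraries alone and 1.52 in the Y libraries alone, positive for all 10 members and with 0 called each time. In those settings 374 of 14271, 461 of 14095 and 282 of 13967 genes were called higher. The first 2 settings compare the same chow livers, because the 5 low-mapping libraries are the 5 Y libraries on chow, so they are not separate checks. *Ccnb1* moved from 1.96 to 1.17 without the low-mapping libraries, and was at 3.73 in the Y libraries alone. The summed level was 36.6, 30.5, 18.1, 24.3 and 27.1 CPM in KO mice and at most 19.7 CPM in Cre mice, so mouse 3 alone overlapped them.

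**Figure D3:**
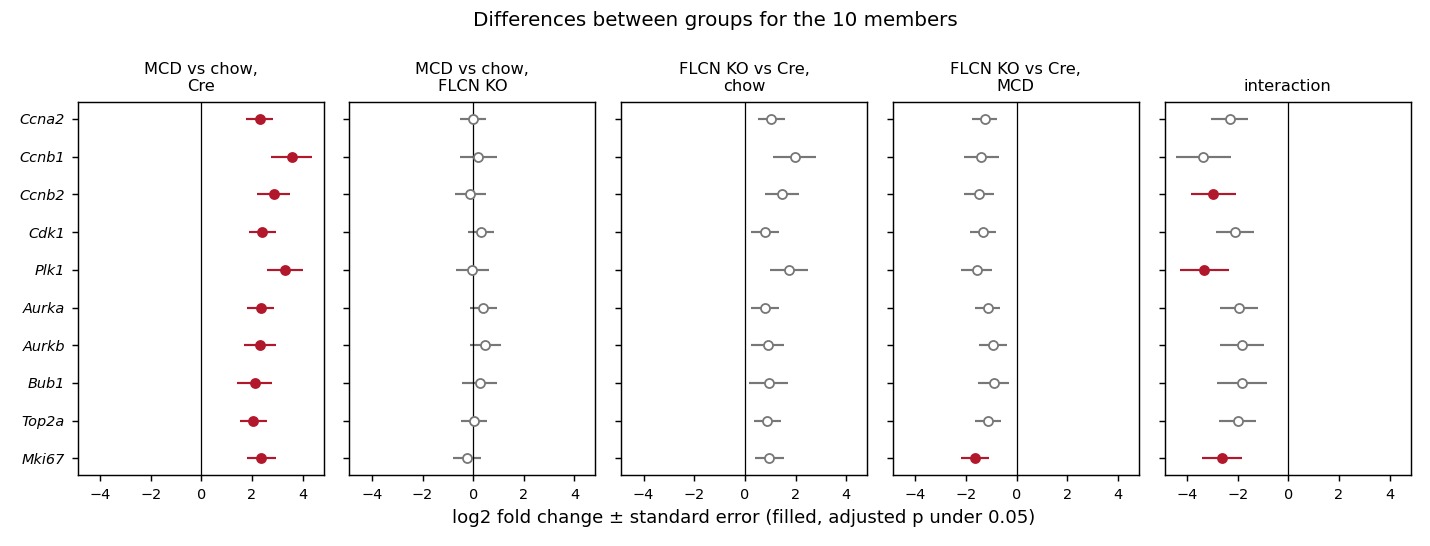
log2 fold change ± standard error (horizontal axis) of each member (vertical axis) in the 4 comparisons and in the interaction of genotype and diet. Filled points have an adjusted p under 0.05: all 10 members for MCD in Cre mice, *Mki67* between the genotypes on MCD, and *Ccnb2*, *Plk1* and *Mki67* for the interaction.

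On MCD, the members were lower in KO than in Cre mice by a median log2 fold change of -1.3, negative for all 10, and only *Mki67* passed the test (-1.65 ± 0.54, adjusted p = 0.04), when 8.53% of all genes were called lower. An unadjusted p under 0.05 was reached by 7 members, which vary together and are not 7 separate results. The groups overlapped for every member: *Mki67* in KO MCD mouse 4 (17.7 CPM) was above Cre MCD mice 2, 3 and 5. For *Plk1* the Cre values of 8.69, 1.77, 1.08, 9.31 and 1.69 CPM stood against 0.143 to 4.69 CPM in KO mice (log2 fold change -1.58 ± 0.62, adjusted p = 0.086). DESeq2 called 4 members (*Ccna2*, *Ccnb2*, *Cdk1* and *Mki67*), when it called 9.71% of all genes lower. A fit of the 2 MCD groups alone called 0, with a median of -1.29 and all 10 negative, when 1038 of 14062 genes were called lower. With the *Xist* or Y class of each library as a covariate 4 were called, when 8.94% of all genes were called lower.

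This comparison turned on single livers. The call of *Mki67* held with 15 of the 22 mice left out in turn. The count was 0 without Cre MCD mouse 1 or 4, with medians of -0.93 and -0.91, when 888 of 14013 and 884 of 14029 genes were called lower. It was also 0 without KO MCD mouse 1, 2, 3, 5 or 6, when 849 to 1176 genes were called lower. The log2 fold change of *Mki67* ran from -2.3 to -1.26 over the 22 omissions. The count was 2 without Cre MCD mouse 2, when 8.83% of all genes were called lower, and 6 without Cre MCD mouse 3, the library with muscle RNA, when 8.38% were. Without KO MCD mouse 4 all 10 members were called lower, with a median of -1.94, when 7.92% of all genes were. Leaving out Cre MCD mice 1 and 3 together, the former with Y-linked reads beside *Xist*, left 0 called, with a median of -1.23 and all 10 negative, when 795 of 13913 genes were called lower. In the *Xist* libraries alone, 3 in each group and including Cre MCD mouse 1, all 10 were called lower (median -2.78, adjusted p = 0.00069 to 0.012), when 7.83% of all genes were. That split was added after the data were seen. Its 3 KO livers on MCD had the lowest sums of their group (10.6, 10 and 8.11 CPM), and it leaves out KO MCD mouse 4 (80.1 CPM). The result is therefore no independent evidence of the difference. In the Y libraries alone, 2 Cre and 3 KO mice, 0 were called (median -0.64), when 421 of 13967 genes were called lower. The difference between these genotype effects was not tested.

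**Figure D4:**
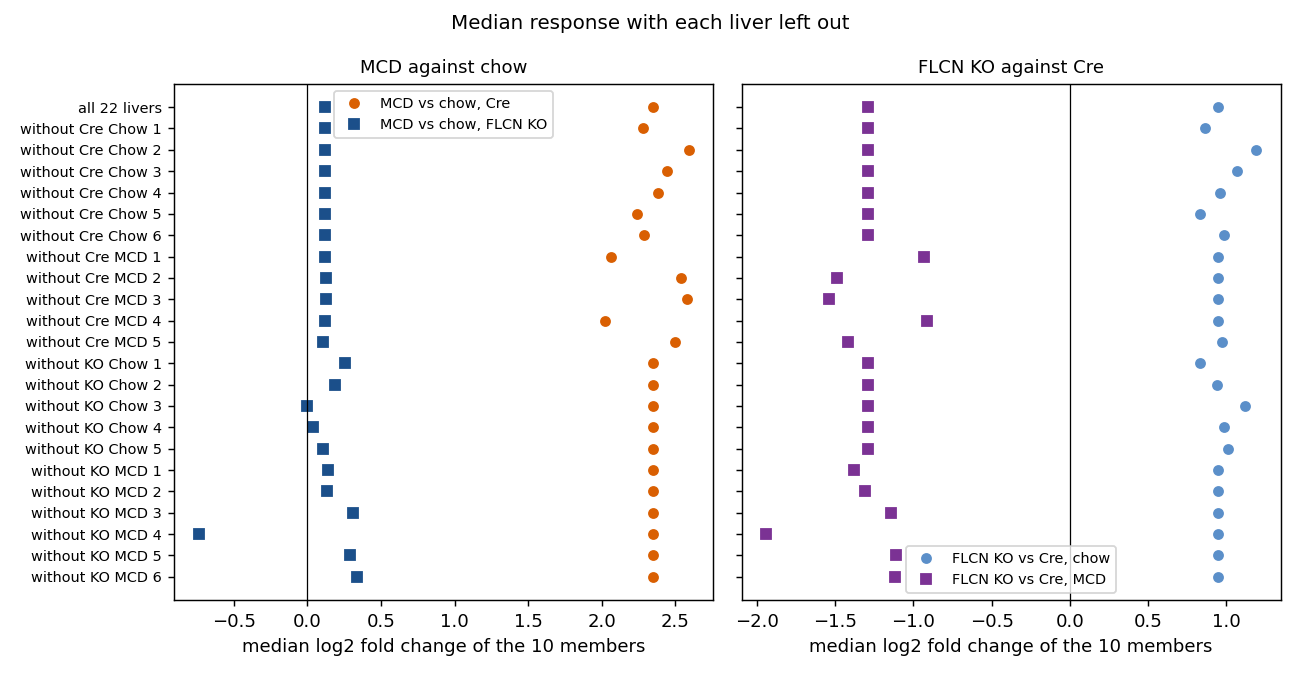
Median log2 fold change of the 10 members (horizontal axes) with all 22 livers and with each liver left out (vertical axis), for MCD against chow in each genotype (left) and for FLCN KO against Cre on each diet (right). Leaving out KO MCD mouse 4 moves the median from 0.12 to -0.74 on the left and to -1.94 on the right.

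The interaction of genotype and diet, which asks whether the response to MCD differed between the genotypes, was negative for all 10 members (median -2.21). It passed the test for *Plk1* (-3.32 ± 0.97, adjusted p = 0.036), *Ccnb2* (-2.96 ± 0.89, adjusted p = 0.04) and *Mki67* (-2.61 ± 0.79, adjusted p = 0.041), when 5.54% of all genes had a smaller response called in KO mice. An unadjusted p under 0.05 was reached by 9 members, all but *Bub1*, and these vary together and are not 9 separate results. The value combines the genotype differences on the 2 diets, of which 0 members passed on chow and 1 on MCD. With 1 mouse left out the number called ran from 0 to 10, with 0 called without Cre MCD mouse 1 or 4, or without Cre chow mouse 1, 4 or 5, or without KO chow mouse 1, 4 or 5 or MCD mouse 3. Without these mice 529 to 771 genes had a smaller response called. Over all 22 omissions *Plk1* ran from -4.14 to -2.88, *Ccnb2* from -3.65 to -2.47 and *Mki67* from -3.26 to -2.22. The number called was 1 without Cre chow mouse 6, when 5.01% of all genes were called, and 1 without KO chow mouse 2 (4.83%) or KO MCD mouse 1 (5.04%), 2 (6.04%), 5 (4.72%) or 6 (3.87%). It was 5 without Cre MCD mouse 2 or 5, when 6.25% and 6.21% were. It was 6 without Cre MCD mouse 3, when 6.05% of all genes were called, and 10 without KO MCD mouse 4, when 5.7% were. In the *Xist* libraries alone, a split added after the data were seen that leaves out KO MCD mouse 4, it was 10 (median -3.56), when 5.5% of all genes were called. With the *Xist* or Y class as a covariate it was 6, when 6.11% were. DESeq2 called 6, when it called a smaller response for 7.59% of all genes. No member was called with limma-voom, with the replicate number as a block, in the Y libraries alone or without the 5 chow libraries of low uniquely mapped share, but all 10 values stayed negative in each, with medians of -2.25, -2.03, -2.13 and -2.01. In these settings, in the same order, a smaller response was called for 611 of 14062, 353 of 14062, 59 of 13967 and 470 of 14271 genes.

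The members varied together from liver to liver. The Pearson correlation of log2 CPM between pairs of members was 0.833 to 0.978 (median 0.92, 45 pairs, 22 libraries), and the libraries share their normalization and the group differences described above. The genes most like the mean of the members were *Pbk* (r = 0.98), *Tpx2* (0.979), *Prc1* (0.972), *Iqgap3* (0.97), *Foxm1* (0.97), *Cenpe* (0.969), *Ncapg* (0.968) and *Hmmr* (0.962), over 22 libraries. The 10 members are therefore not 10 independent measurements of a liver.

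Of 70 further mitotic genes in 7 lists, 68 were tested and 56 rose with MCD in Cre mice (median 1.77), against the 29.3% of all genes called higher, while 4 fell, against 28.2% called lower. In KO mice 4 rose and 3 fell, of the 45% of all genes that were called in either direction. All 11 tested mitotic kinesins, which move chromosomes and organise the spindle, rose in Cre mice (median 2.25), as did all 6 partners of the Aurora kinases (median 2.08). *Tpx2*, which activates Aurora A, rose by 3.22 ± 0.71 (adjusted p = 6e-04), and *Birc5*, or survivin, a subunit of the Aurora B complex, by 2.22 (adjusted p = 0.0046). Of 9 cytokinesis genes 8 rose, among them *Racgap1* of the central spindle (3.04 ± 0.59, adjusted p = 0.00017).

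Of 12 genes of the spindle checkpoint and anaphase, 8 rose in Cre mice. *Cdc20*, an activator of the anaphase-promoting complex, was at 1.21 ± 0.70 CPM (SD, n = 6) in Cre mice on chow and 14.7 ± 16.6 CPM (SD, n = 5) on MCD, and its response was smaller in KO mice (interaction -4.12 ± 1.05, adjusted p = 0.019). *Ube2c*, the ubiquitin-conjugating enzyme of the same complex, rose by 3.63 ± 0.61 in Cre mice (adjusted p = 3.7e-05) and was lower in KO mice on MCD (-1.85 ± 0.54, adjusted p = 0.021). Of 14 tested kinetochore and centromere genes 11 rose and of 8 condensin genes 6, including *Cenpe* (2.95, adjusted p = 0.00024) and *Ncapg* (2.39, adjusted p = 0.002). The 4 that fell in Cre mice were *Ccnf* (-1.17), *Spc24* (-0.95), *Pttg1* (-0.57) and *Cks2* (-0.53). Without Cre MCD mouse 3 no gene of the checkpoint list, which holds *Pttg1*, was called lower. Between the genotypes on MCD 10 of the 68 were called lower, against 8.53% of all genes, and 0 higher, against 8.06%. A smaller response in KO mice was called for 15, against 5.54% of all genes. On chow 0 were called higher and 1 lower (*Pttg1*), against 3.1% of all genes called lower.

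Regulators of entry into the cycle and of its transcription were counted in 3 further lists, beside the 29.3% of all genes called higher in Cre mice. *Foxm1*, which drives the late cell cycle genes, rose in Cre mice by 2.45 ± 0.53 (adjusted p = 0.00048) with a smaller response in KO mice (-2.50 ± 0.73, adjusted p = 0.036), and 2 of the 13 tested transcriptional regulators rose, *Foxm1* and *Rbl1*, and *Rbl2* fell. Of 8 G1 cyclins and kinases 5 rose in Cre mice. *Ccnd1*, or cyclin D1, was at 89.7 ± 50 CPM (SD, n = 6) on chow and 425 ± 57 CPM (SD, n = 5) on MCD in Cre mice, and at 192 ± 78.1 and 236 ± 56.8 CPM in KO mice. It was higher in KO mice on chow (1.10 ± 0.34, adjusted p = 0.047) and its response to MCD was smaller in them (-1.94 ± 0.48, adjusted p = 0.016). *Ccne1*, or cyclin E1, rose in both genotypes, by 2.83 ± 0.59 in Cre and 2.34 ± 0.61 in KO mice (adjusted p = 0.00035 and 0.0035). Of 6 tested inhibitors of cyclin-dependent kinases 4 rose in Cre mice. *Cdkn2c*, or p18, rose in Cre mice (1.27 ± 0.11, adjusted p = 4.4e-09) and in KO mice (0.78 ± 0.11, adjusted p = 5.9e-06), and was higher in KO mice on chow (0.64 ± 0.11, adjusted p = 0.00056). Its response to MCD was smaller in KO mice (interaction -0.49 ± 0.15, adjusted p = 0.047).

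Of 20 S phase genes 15 rose in Cre mice (median 0.94), against 29.3% of all genes called higher. In KO mice 7 rose (median 0.39), against 22.5% of all genes called higher. The interaction was called negative for 4 of the 20, against 5.54% of all genes. *Mcm2*, a subunit of the replicative helicase, rose in both, by 2.32 ± 0.23 in Cre mice (adjusted p = 3.1e-08) and 1.23 ± 0.23 in KO mice (adjusted p = 0.00014). Its response was smaller in KO mice (interaction -1.09 ± 0.31, adjusted p = 0.034). *Cdc6*, which loads that helicase, rose in Cre mice (2.28, adjusted p = 4.1e-05) and was at -0.16 in KO mice (adjusted p = 0.78), with an interaction of -2.45 (adjusted p = 0.013). The responses of these genes and of the members were not compared with a test.

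**Figure D5:**
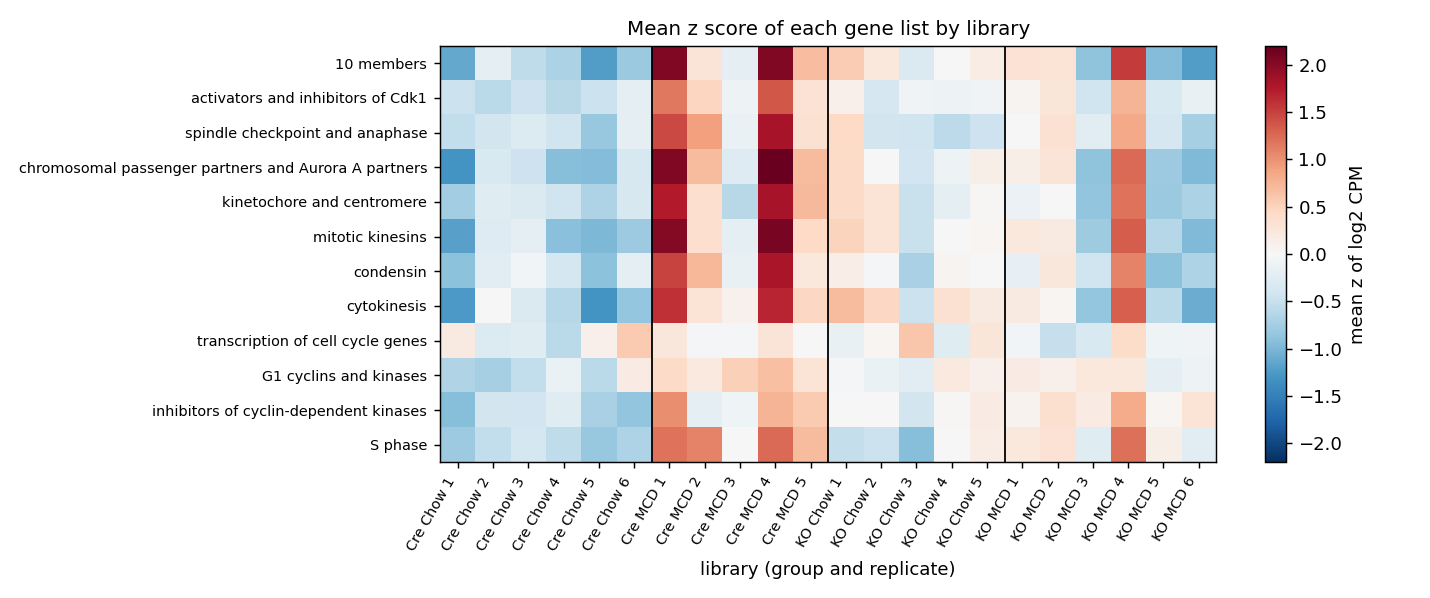
Mean z score of log2 CPM (color) of the 10 members and of 11 lists of cell cycle genes (vertical axis) in each of the 22 libraries (horizontal axis). The mean z of the members is 2.04 in Cre MCD mice 1 and 4 and 1.54 in KO MCD mouse 4, and 6 of the 7 mitotic lists are highest in the same 3 livers. In the list of the spindle checkpoint and anaphase, Cre MCD mouse 2 (0.899) is above KO MCD mouse 4 (0.833).

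Markers of other cells moved with the diet as well, and their part in the members' result was not tested. With MCD, 29.3% of all genes were called higher and 28.2% lower in Cre mice. In KO mice 22.5% were called higher, and 3166 of 14062 genes were called lower. Of 8 markers of monocyte-derived macrophages 7 rose in Cre mice and 3 in KO mice, 4 were lower in KO than in Cre mice on MCD, against 8.53% of all genes, 6 had a smaller response in KO mice, against 5.54%, and the most abundant was *Lyz2*. On chow *Gpnmb* (3.04, adjusted p = 0.0082) and *Trem2* (1.65, adjusted p = 0.011) were higher in KO mice, and all 8 values were positive. Their summed level in Cre MCD mice 1 to 5 was 379, 234, 561, 478 and 278 CPM, with the highest value in mouse 3, which had the lowest members' sum. In KO MCD mice 1 to 6 it was 314, 411, 139, 409, 208 and 216 CPM, with the lowest values in the 3 *Xist* livers. All 4 tested neutrophil markers rose in Cre mice and 3 in KO mice (most abundant *S100a9*, by 2.92 and 2.05), 1 was lower in KO than in Cre mice on MCD, and *Ly6g* had 0 reads in 17 of 22 libraries. Of 6 stellate cell markers 4 rose in Cre mice and 0 in KO mice, 4 were lower in KO than in Cre mice on MCD (median -1.21) and 2 had a smaller response in KO mice. Their sum was 158, 104, 314, 152 and 128 CPM in Cre MCD mice 1 to 5, and 84.8 to 120 CPM in KO mice on MCD. *Des*, which muscle also expresses, made up 146 CPM of the sum in mouse 3, the library with muscle RNA, and the list without *Des* summed to 151, 97.2, 168, 136 and 122 CPM. Without mouse 3, 3 of the 6 rose in Cre mice (median 0.62), 2 were lower in KO mice on MCD (median -0.60) and 1 had a smaller response, *Col1a1* of fibrillar collagen (-2.85, adjusted p = 0.004).

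Of 5 cholangiocyte markers 3 rose in Cre mice and 0 in KO mice. *Spp1*, the most abundant, rose in Cre mice (1.39, adjusted p = 2e-05), was higher in KO mice on chow (1.21, adjusted p = 0.0012) and had a smaller response in KO mice (-1.56, adjusted p = 0.0047). Between the genotypes on chow 3 of the 5 markers were positive (median 0.081, from -1.77 to 1.21). *Sox9* was higher in KO mice on MCD (0.71, adjusted p = 0.044), a call lost without Cre MCD mouse 3. It was the only 1 of the 5 markers with a positive value in that comparison (median -0.50). Of 4 Kupffer cell markers 2 fell in each genotype, *Clec4f* and *Timd4*, and *Timd4* was higher in KO mice on MCD (0.94, adjusted p = 0.01). Between the genotypes on MCD 2 of the 4 Kupffer cell markers were positive (median -0.045). Of 5 endothelial markers 2 fell and 1 rose in Cre mice and 3 fell in KO mice, and *Stab2* was higher in KO mice on chow (0.76, adjusted p = 0.00023) and on MCD (0.62, adjusted p = 0.0012).

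All 5 hepatocyte markers fell in Cre mice and 4 of 5 in KO mice, and between the genotypes on MCD 0 were called. *Ttr*, or transthyretin, was lower in KO mice on chow (-0.46, adjusted p = 0.0079) and its fall with MCD was smaller in them (interaction 0.60, adjusted p = 0.016). Of 7 tested T, NK and B cell markers 0 were called in Cre mice and 4 fell in KO mice (median -0.99), among them *Cd4* (-2.14, adjusted p = 0.0017). Of all 14062 tested genes 3166 fell in KO mice. Of 6 tested erythroid markers 3 rose in Cre mice (*Hbb-bs*, *Hba-a1* and *Hba-a2*). *Hbb-bt* was higher in KO mice on chow (1.26, adjusted p = 0.025), and *Hbb-bt* and *Hba-a1* had a smaller response in KO mice (-1.68, adjusted p = 0.033, and -1.50, adjusted p = 0.039). Without Cre MCD mouse 3, 2 erythroid markers rose in Cre mice, 3 were higher in KO mice on chow and 0 had a smaller response. Among 6 genes of myeloid and haematopoietic precursors, which divide in bone marrow, *Mpo* had 0 reads in 11 libraries, *Elane* in 9, *Prtn3* in 5 and *Ctsg* in 21. The other 2 of them were tested. *Kit*, the most abundant, was at 4.83 ± 0.79 CPM (SD, n = 6) on chow and 5.33 ± 1.38 CPM (SD, n = 5) on MCD in Cre mice (0.14, adjusted p = 0.63). *Cd34*, which endothelial cells also express, was at 2.59, 1.94, 10.7, 2.67 and 2.05 CPM in Cre MCD mice 1 to 5. It rose in Cre mice (2.17 ± 0.46, adjusted p = 4e-04), was higher in KO mice on chow (1.77 ± 0.47, adjusted p = 0.02) and had a smaller response in KO mice (-2.55 ± 0.63, adjusted p = 0.015). Without mouse 3 these log2 values were 1.39 (adjusted p = 0.0023), 1.77 (adjusted p = 0.0017) and -1.77 (adjusted p = 0.022). The sum of the precursor genes was 8.73, 6.77, 18.3, 7.91 and 6.4 CPM in Cre MCD mice 1 to 5, highest in mouse 3. Skeletal muscle markers summed to 15.9, 2.2, 2330, 117 and 1.18 CPM in Cre MCD mice 1 to 5. All 7 were called higher with MCD in Cre mice, against 29.3% of all genes. All 7 were called lower in KO than in Cre mice on MCD, against 8.53%. Mouse 3, with the most muscle RNA, had the lowest members' sum of its group, while mice 4 and 1, next in muscle RNA, had the highest. The part of muscle RNA in the members' result was not tested. All 10 members were still called in Cre mice without Cre MCD mouse 3, when 4098 of 13958 genes were called higher.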

How the data were processed

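Single-end mRNA reads were trimmed with Trimmomatic and aligned to GRCm38 with STAR, and the authors deposited HTSeq counts, whole numbers of reads per gene without normalization (versions, annotation release and strand setting are not given in the sources used here). Adapters carried molecular identifiers, but no step that collapses reads on them is stated, so errors from counting alone understate the noise. All 22 columns of the table matched a sample label and 0 did not. No pair of libraries within a group was identical. Each library is 1 mouse, and p-values measure the spread between these mice, with 1 estimate shared by the 4 groups. The SD of the members' sum was 4.6 CPM in Cre and 6.9 CPM in KO mice on chow. It was 56.2 and 27.3 CPM on MCD. The test between the genotypes on chow therefore also draws on the spread of the MCD livers, and that on MCD on the spread of the chow livers.

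Genes averaging at least 10 counts per library were tested in R 4.3.3 with edgeR 4.0.16 (TMM, 1 fit of the 4 groups, two-sided quasi-likelihood test, Benjamini-Hochberg adjustment over all 14062 genes, threshold 0.05). A standard error is the log2 fold change divided by the root of its F statistic. Positions and exon lengths come from GENCODE M21 on GRCm38, and promoters from RefSeq. The members, the lists and the rule for naming genes (the members, the 4 most abundant and the 3 most changed genes of each list, genes called between genotypes on chow or with MCD in KO mice, and the 8 genes most like the members) were chosen with earlier results of these data known. The genes of the lists that the text singles out are a selection of those the rule names, made after their values were seen. The fit was tested on simulated data in which 200 of 14062 genes were changed. It recovered 94% of changes of 2 log2 units for MCD in Cre mice and 84% for the interaction, and 73% and 45% of changes of 1 log2 unit. For MCD in KO mice it recovered 93% of changes of 2 log2 units and 67% of changes of 1. The changed genes were drawn at random from all tested genes. The members are rare and variable, with standard errors of 0.51 to 0.73 for MCD in KO mice. These percentages therefore do not give the chance of finding such changes in the members. Alternatives were RLE factors, DESeq2 1.42.0, limma-voom (limma 3.58.1), no filter or a higher minimum for low counts, separate fits of the groups compared, the replicate number as a block, sex read from *Xist* and *Ddx3y* as a covariate, omission of the 5 chow libraries with a uniquely mapped share under 75% in the study's library statistics, and each mouse left out. A further 4 were added after the data were seen: the *Xist* libraries alone, the Y libraries alone, omission of Cre MCD mice 1 and 3 together, and the lists without Cre MCD mouse 3.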

Additional observations from a re-analysis of the deposited data

Results flagged for a closer look

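In groups of 5 or 6 livers, 1 liver lay far from the others in 10 of the 40 sets of values examined (10 members in 4 groups), where chance gives about 5%. The members vary together, so these are not 10 separate events. In 8 of the 10, the liver was KO MCD mouse 4: *Ccnb1* at 4.69 CPM, *Ccnb2* at 5.92, *Plk1* at 4.69, *Aurka* at 6.93, *Aurkb* at 3.85, *Bub1* at 2.41, *Top2a* at 16.7 and *Mki67* at 17.7. In the other 2 it was Cre chow mouse 2, with *Aurka* at 2.19 and *Aurkb* at 1.15 CPM.

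The response to MCD differed between the genotypes by the interaction test of edgeR for *Ccnb2* (-2.96, adjusted p = 0.04), *Plk1* (-3.32, adjusted p = 0.036) and *Mki67* (-2.61, adjusted p = 0.041). Each was positive in Cre mice (2.85, 3.29 and 2.37) and near 0 in KO mice (-0.11 ± 0.61, -0.03 ± 0.66 and -0.24 ± 0.55). The KO values average over livers that spread to both sides. In the same order they were -1.50, -2.07 and -1.91 in the *Xist* libraries alone and 0.36, 0.62 and 0.65 in the Y libraries alone.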

How the results depend on the processing

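The rise of the members in Cre mice kept its direction under every alternative run, with 7 to 10 called. The 7 came without the 5 chow libraries of low uniquely mapped share, where the median was 1.99. Between genotypes on MCD, the 1 member called became 4 with DESeq2, 4 with sex as a covariate, 10 in the *Xist* libraries alone, and 0 in the Y libraries alone, in a fit of the groups compared and without Cre MCD mice 1 and 3. With each mouse left out it ran from 0 to 10. For the interaction, the 3 called became 6 with DESeq2, 6 with sex as a covariate and 10 in the *Xist* libraries alone. They became 0 with limma-voom, with the replicate block, in the Y libraries alone and without the 5 low-mapping chow libraries, where the medians were -2.25, -2.03, -2.13 and -2.01 against -2.21 with all 10 members negative, and with each mouse left out ran from 0 to 10. On chow, 0 became 4 in a fit of the groups compared, and with MCD in KO mice 0 became 5 in the *Xist* libraries alone. The causes were not tested, and the *Xist* and Y splits were added after the data were seen. A mean count of at least 30 removed *Aurkb* and *Bub1*.

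Changes of sign concerned MCD in KO mice, where log2 fold changes lie near 0, and 1 other value (*Bub1* between genotypes on MCD, 0.029 in the Y libraries alone). With limma-voom *Ccnb1* was at -0.56, *Cdk1* at -0.041, *Bub1* at -0.48 and *Top2a* at -0.43. With sex as a covariate *Ccnb1* was at -0.11, *Bub1* at -0.000979 and *Top2a* at -0.12. Without the low-mapping chow libraries *Ccna2* was at 0.064, *Ccnb2* at 0.071, *Plk1* at 0.064 and *Top2a* at -0.012. In the *Xist* libraries alone *Ccnb1* was at -1.94, *Cdk1* at -1.02, *Aurka* at -0.74, *Aurkb* at -1.12, *Bub1* at -2.30 and *Top2a* at -1.54. In the Y libraries alone *Ccna2* was at 0.57, *Ccnb2* at 0.36, *Plk1* at 0.62 and *Mki67* at 0.65. With each mouse left out the ranges were -0.52 to 0.17 (*Ccna2*), -0.72 to 0.47 (*Ccnb1*), -0.80 to 0.16 (*Ccnb2*), -0.24 to 0.48 (*Cdk1*), -0.85 to 0.21 (*Plk1*), -0.22 to 0.59 (*Aurka*), -0.25 to 0.68 (*Aurkb*), -0.76 to 0.50 (*Bub1*) and -0.79 to 0.23 (*Top2a*), each lowest without mouse 4 of the MCD group.

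The replicate block made *Ccnb1* -0.089 and *Top2a* -0.19 in that comparison, left 10 members called for MCD in Cre mice and 1 between genotypes on MCD, and called 0 for the interaction. The numbers mark different mice, and over 31 pairs of same-numbered mice the correlation of deviations was -0.551 to 0.47 (mean 0.00607), so the block pairs no mice.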

Other observations

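Further cell cycle genes were called between the genotypes or with MCD. *Pttg1*, which encodes securin, the inhibitor of separase, was at 35.1 ± 2.9 CPM (SD, n = 6) in Cre mice on chow and 4.51 ± 1.13 CPM (SD, n = 5) in KO mice on chow, and at 23.7 ± 3.65 and 4.77 ± 2.43 CPM on MCD. It was lower in KO mice on both diets, by log2 fold changes of -2.97 ± 0.24 (adjusted p = 5.4e-08) and -2.30 ± 0.23 (adjusted p = 6.8e-07). *E2f8*, a repressor of cell cycle genes that is linked to polyploid hepatocytes, was higher in KO mice on chow (1.11 ± 0.32, adjusted p = 0.033) and on MCD (1.56 ± 0.31, adjusted p = 0.0017), when 8.06% of all genes were called higher on MCD. *Tk1*, the thymidine kinase of S phase, fell with MCD in both genotypes, from 23.8 ± 7.23 to 6.91 ± 2.31 CPM in Cre mice (-1.79, adjusted p = 1.9e-06) and from 16.4 ± 4.66 to 4.8 ± 0.80 CPM in KO mice (-1.78, adjusted p = 2.9e-06). *Cdkn3*, a phosphatase that acts on CDK1, was higher in KO mice on chow (2.30 ± 0.69, adjusted p = 0.04), rose with MCD in Cre mice (3.69, adjusted p = 6.4e-05) and had a smaller response in KO mice (-2.97, adjusted p = 0.036), the directions of the members.

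Split by the sex read from the counts in 1 fit, the response of the members to MCD in KO mice had a median log2 fold change of 0.84 in Y libraries (0 called) and -1.52 in *Xist* libraries (2 called lower, when 38.1% of all genes were called in either direction). The difference between the 2 was positive for 10 of 10 members (median 2.41, from 1.67 to 3.49), 7 had an unadjusted p under 0.05, and 0 passed the adjusted test with edgeR (adjusted p = 0.27 to 0.6), as 0.676% of all genes did. In Cre mice the same difference had a median of 0.97 and 0 were called. The difference rests on 2 or 3 mice of each kind in a group, and on chow the Y libraries are those with a low uniquely mapped share. In KO mice it restates the order of the MCD livers described above, in members that vary together and with KO MCD mouse 4 among the Y livers. It is therefore no independent evidence of that order.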
